A study of Mus musculus with 288 samples.

Results

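Nutrient transporter genes of 11 solute carrier (SLC) families were examined in single cells of the upper small intestine of GLU-Venus mice. The 109 genes, of 46078 mouse genes in the table, are those whose symbols begin with Slc1a, Slc2a, Slc3a, Slc5a, Slc6a, Slc7a, Slc15a, Slc16a, Slc36a, Slc38a or Slc43a. Slc5a1, Slc2a2 and Slc6a4 were left out by the same rule. The male mice, on a C57BL6 background and aged 20 to 21 weeks, carried the yellow fluorescent protein Venus under control of the proglucagon promoter. Their untreated small intestines were digested to single cells, and the cells were sorted into wells and sequenced by Smart-seq2, a full-length cDNA protocol without strand information or molecular identifiers. The labels name all 288 cells L-cells and give the sequencing pool of each, but neither its mouse nor its fluorescence. Venus-negative control cells were also sorted, so cells that do not transcribe Gcg can be among them.

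Cells with at least 20000 reads on mouse genes and at most 20% mitochondrial reads were kept, which left 250 of the 288. They were placed in 3 classes by their hormone or marker transcript in CPM, the count of a gene scaled to a total of 1000000 reads. Gcg-high cells had Gcg, the proglucagon gene, at 10000 CPM or more. Gip-high cells had Gip, the gene of the K-cell hormone, at 10000 CPM or more. Pzp-positive cells had Pzp, pregnancy zone protein, at 100 CPM or more. No transporter gene entered this rule. Only cells that met exactly 1 condition were used, which gave 53 Gcg-high, 25 Gip-high and 64 Pzp-positive cells. Pool SLX-11175 held 16 Gcg-high, 10 Gip-high and 14 Pzp-positive cells. Pool SLX-11179 held 18, 5 and 22 of them and the deeply sequenced pool SLX-9703 held 19, 10 and 28. Reads were summed per class and pool, and the 3 pools, taken as the 3 mice, were the replicates, so that p-values measure the spread between pools. Where a class is given by its values, they stand in this order of the pools. A sum cannot tell fewer cells with a transcript from less of it per cell, and single cells of pool SLX-9703 are therefore given as well. The CPM of single cells and of marker lists lack the scaling between sums (TMM) that the CPM of the class sums have.

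Absorptive cells take up amino acids, small peptides and sugars through carriers of the SLC families. Some carriers sit in the brush border and are driven by sodium or protons. Others lie in the basolateral membrane and pass the nutrients on to the blood. Several work only as heterodimers, in which a glycoprotein of the Slc3 family brings a Slc7 carrier to the membrane. In enteroendocrine cells the same carriers are studied as nutrient sensors, since ion-coupled uptake can depolarise the cell and trigger hormone release.

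The median depth was 52571, 70726 and 1975706 reads per used cell in the 3 pools. The shallowest sum, Gip-high cells of pool SLX-11175, held 420453 reads, so that 3 reads in it equalled 10.7 CPM. Endocrine markers had reads for 8 of 8 genes in each of the 9 sums. They summed to 21560 to 43141 CPM in Gcg-high, 2566 to 9509 CPM in Gip-high and 9426 to 20026 CPM in Pzp-positive cells. In each pool they were lowest in Gip-high cells. Enterocyte markers summed to 3030 to 4825 CPM in Gcg-high, 782 to 1396 CPM in Gip-high and 4587 to 6750 CPM in Pzp-positive cells, with 9 to 12 of 12 markers read and Alpi, Lct or Apoa4 at 0 in some shallow sums. Goblet markers were highest in Pzp-positive cells, at 8414 to 11112 CPM (4 to 6 of 7 read), against 929 to 2004 CPM in Gcg-high and 23.8 to 209 CPM in Gip-high cells. In Pzp-positive cells Clca1 was at 0 in every pool, and Zg16 and Spdef were at 0 in the shallow pools. These lists moved with the classes. The tests were repeated without the 25% of cells highest in enterocyte genes in each sum, and the part of goblet genes in the transporter values was not tested.

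Of the 109 transporter genes, 103 had a read in any used cell and 97 had a read in the 3 classes. Slc15a5, Slc1a6, Slc36a3, Slc5a2, Slc6a15 and Slc6a16 had none. The filter on low counts was passed by 39 of the 109 genes, or 35.8%, against 21.0% of all genes. The other 70 were not tested. By family, the filter was passed by 9 of 16 Slc7a, 8 of 14 Slc16a, 5 of 21 Slc6a, 5 of 11 Slc38a, 3 of 5 Slc15a, 3 of 12 Slc2a, 2 of 7 Slc1a, 2 of 2 Slc3a, 1 of 6 Slc36a, 1 of 3 Slc43a and 0 of 12 Slc5a genes. The sodium-coupled Slc5a family, without Slc5a1, had few reads, with a summed level of 7.64 ± 2.66 CPM (SD, n = 3 pools) in Gcg-high, 12.7 ± 5.29 CPM in Gip-high and 11.4 ± 4.26 CPM in Pzp-positive cells. Of the 109 genes, 105 are protein coding. Slc6a19os, Slc36a1os and Slc36a3os are antisense transcripts, Slc2a4rg-ps is a pseudogene, and Slc7a6os, although coding, is named only for lying opposite to Slc7a6. Exons of 26 of the genes overlap another gene, among them Slc1a1, Slc2a1, Slc6a6, Slc7a2, Slc7a4, Slc16a5, Slc16a6, Slc38a9 and Slc38a10, and reads on the shared part cannot be told apart by strand.

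All transporter genes together had overlapping levels in the 3 classes in TMM-scaled CPM, which are not shares of the reads. Shares of the unscaled reads are not given. Their summed level was 1059, 1468 and 1228 CPM in Gcg-high cells, 1174, 1038 and 1499 CPM in Gip-high cells, and 1074, 965 and 963 CPM in Pzp-positive cells. The classes overlapped in this sum, but not in the share that 1 gene had of it. The neutral amino acid carrier Slc6a19 made up 28.9%, 26.4% and 23.1% of it in Gcg-high cells and 39.8%, 37.5% and 35.2% in Gip-high cells. In Pzp-positive cells Slc6a19 made up 11.9%, 7.75% and 11.9%.

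**Figure D1:**
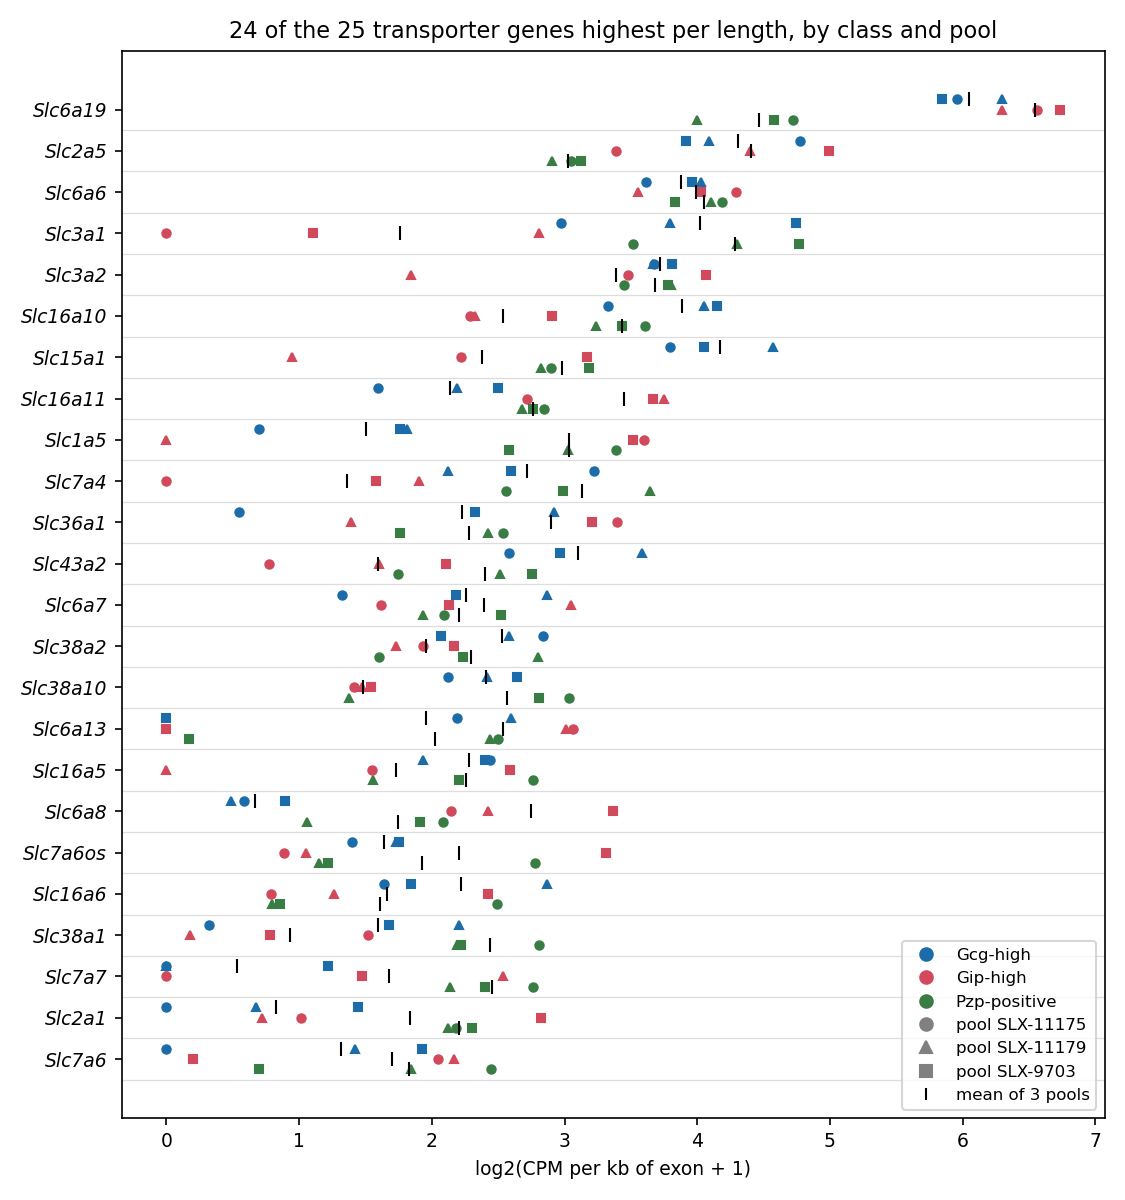
Level per length, log2(CPM per kb of exon + 1), of 24 of the 25 transporter genes with the highest mean over the 9 sums; each point is 1 class in 1 pool and each black tick the mean of 3 pools. Slc6a19, with a mean of 59.4 CPM per kb, lies apart from the next gene, Slc2a5, with 15.4 CPM per kb.

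Per kilobase of exon, Slc6a19 reached 59.4 CPM on average over the classes and pools, and 306 genes of the table had a higher value. The next were the fructose carrier Slc2a5 at 15.4, the taurine carrier Slc6a6 at 14.7, the glycoprotein subunits Slc3a1 and Slc3a2 at 12 and 11.2, the aromatic amino acid carrier Slc16a10 at 9.46 and the peptide carrier Slc15a1 at 9.38 CPM per kb. The median over the 97 transporter genes with a read was 0.503 CPM per kb, close to the 0.436 CPM per kb over all 28490 genes with a read.

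Slc6a19 (ENSMUSG00000021565, chr13:73679745-73704865 of GRCm38, minus strand) encodes the sodium-coupled carrier of neutral amino acids in the brush border. Its level was 306, 387 and 283 CPM in Gcg-high cells, 468, 389 and 528 CPM in Gip-high cells, and 127, 74.9 and 115 CPM in Pzp-positive cells. Every Gcg-high and Gip-high sum lay above every Pzp-positive sum. The log2 fold change of Gip-high against Pzp-positive cells was 2.14 (SE 0.42, adjusted p = 0.0111, edgeR quasi-likelihood test over 9656 genes), and Slc6a19 was the only 1 of the 39 tested transporter genes that passed the threshold of 0.05 there. Of all genes, 2.86% passed in this comparison. The call was lost with any pool left out. With edgeR it had an adjusted p of 0.0549 when SLX-11175 was left out, of 0.149 for SLX-11179 and of 0.112 for SLX-9703, while the log2 fold change stayed between 1.99 and 2.22. Without the cells highest in enterocyte genes it was 2.53 (edgeR, adjusted p = 0.0347).

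Against Pzp-positive cells, Gcg-high cells also had more Slc6a19 in each pool, with a log2 fold change of 1.66 (SE 0.42). It did not pass in the main edgeR fit (adjusted p = 0.176). It passed with DESeq2 (adjusted p = 0.00175), with class thresholds 3 times higher (log2 fold change 2.21, edgeR adjusted p = 0.0119) and with all cells thinned to 20000 reads (edgeR, adjusted p = 0.0409), but with none of the other 14 alternatives. With 1 pool left out it was 1.31 to 1.85 (edgeR, adjusted p = 0.509 to 1), and without the cells highest in enterocyte genes 2.39 (edgeR, adjusted p = 0.160). Gip-high against Gcg-high cells gave 0.48 (SE 0.41, adjusted p = 0.689, edgeR), and the lowest Gip-high sum, 389 CPM, lay just above the highest Gcg-high sum of 387 CPM.

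In single cells of the deep pool SLX-9703, Slc6a19 was read in 18 of 19 Gcg-high, 10 of 10 Gip-high and 26 of 28 Pzp-positive cells. The median cell had 298 CPM in the first class and 388 CPM in the second, against 102 CPM in Pzp-positive cells. Pzp-positive cells were also the more uneven, with quartiles of 4.50 and 224 CPM and a highest cell of 754 CPM, against quartiles of 218 and 500 CPM in Gcg-high cells. After thinning to 20000 reads, 94.7% of Gcg-high, 100% of Gip-high and 57.1% of Pzp-positive cells kept a read. Slc6a19 was thus read at depth in nearly every cell of all classes.

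Slc6a19 reaches the membrane with a helper protein such as collectrin (Cltrn). Cltrn, unlike its partner, was lowest in Gip-high cells. Its level was 17.8, 4.55 and 27.5 CPM there, 82.9, 84.4 and 98.1 CPM in Gcg-high cells, and 161, 135 and 186 CPM in Pzp-positive cells. No sums of different classes overlapped. Cltrn fell by 2.45 on the log2 scale in Gip-high against Gcg-high cells (SE 0.55, adjusted p = 0.0411, edgeR) and by 3.30 against Pzp-positive cells (SE 0.55, adjusted p = 0.00348, edgeR). In the deep pool, Slc6a19 and Cltrn were both read in 17 of 19 Gcg-high and 26 of 28 Pzp-positive cells but in 4 of 10 Gip-high cells.

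**Figure D2:**
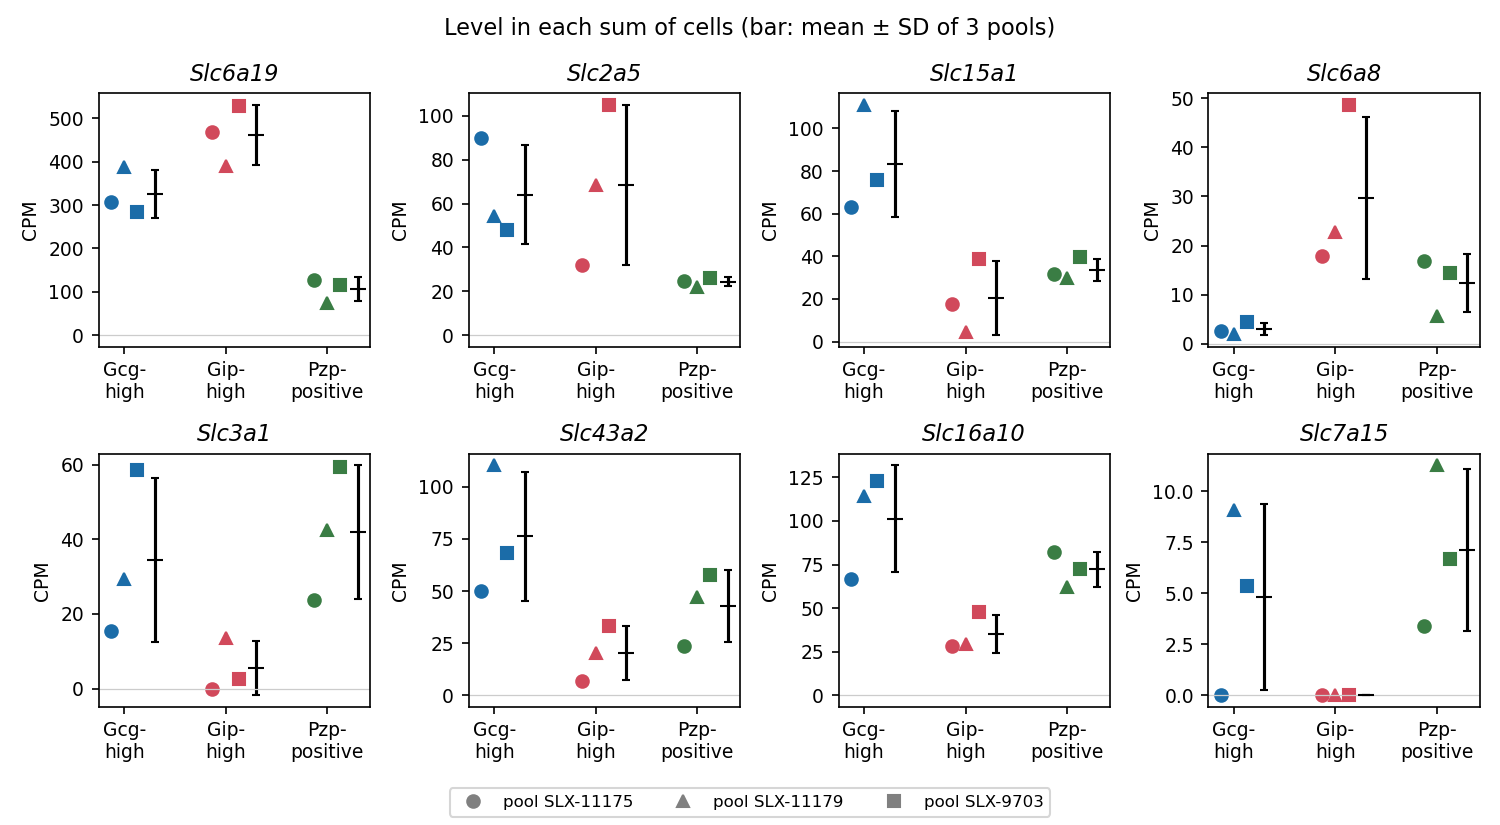
CPM of 8 transporter genes in each of the 9 sums; points are pools, and the black bar is the mean ± SD of 3 pools. Slc6a19 is lowest in Pzp-positive cells, Slc6a8 is lowest in Gcg-high cells, and Slc15a1, Slc3a1, Slc43a2 and Slc16a10 lie lower in all Gip-high sums than in any Gcg-high sum.

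Slc3a1 (ENSMUSG00000024131, chr17:85028376-85064236, plus strand) encodes the heavy subunit of the brush border carrier for cystine and dibasic amino acids. It had 15.5, 29.3 and 58.7 CPM in Gcg-high cells, 0, 13.7 and 2.62 CPM in Gip-high cells, and 23.7, 42.6 and 59.5 CPM in Pzp-positive cells. All Gip-high sums lay below all sums of the other classes, although the 0 in pool SLX-11175 came from a sum in which 3 reads equal 10.7 CPM. The log2 fold change of Gip-high cells was -3.35 (SE 0.94, adjusted p = 0.0755, edgeR) against Pzp-positive and -3.02 (SE 0.95, adjusted p = 0.162, edgeR) against Gcg-high cells. Neither passed in the main edgeR fit, and both passed with DESeq2 (adjusted p = 0.00513 and 0.0240). Of 17 alternatives each, DESeq2 among them, the first passed in 2 and the second in 1. Without pool SLX-9703 they were -2.39 and -1.83, and without pool SLX-11179 they were -4.80 and -4.52. With cells of more than 1 condition kept they were -2.03 and -1.60. Exons of Slc3a1 overlap those of Prepl on the other strand.

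The light subunit that pairs with Slc3a1, Slc7a9, was nearly missing from these cells. It was at 0, 6.98 and 7.05 CPM in Gcg-high, 0, 0 and 0.194 CPM in Gip-high, and 0, 3.08 and 0.0570 CPM in Pzp-positive cells. The reads of the deep pool came from 1 of 19, 2 of 10 and 3 of 28 cells, while Slc3a1 was read there in 16, 4 and 25 cells. Among the 57 cells of the 3 classes in that pool, 45 had Slc3a1, 6 had Slc7a9 and 5 had both. The heavy subunit was thus mostly read without the light one.

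The peptide carrier Slc15a1 (ENSMUSG00000025557, chr14:121459621-121505252, minus strand), which takes up dipeptides and tripeptides with protons, stood highest in Gcg-high cells among the 3 classes. Its level was 63, 111 and 76 CPM there, 17.8, 4.55 and 39 CPM in Gip-high cells, and 31.6, 29.7 and 39.6 CPM in Pzp-positive cells. The Gcg-high sums did not overlap with those of either other class, which overlapped each other. The log2 fold change was 1.36 (SE 0.61, adjusted p = 0.999) for Gcg-high against Pzp-positive and -2.10 (SE 0.67, adjusted p = 0.172) for Gip-high against Gcg-high cells, both in edgeR. DESeq2 called the second (adjusted p = 0.0345) and not the first. Without the cells highest in enterocyte genes the first was 2.01. The second was -1.37 without pool SLX-11179 and -2.99 without pool SLX-9703. In the deep pool every Gcg-high cell had reads of Slc15a1, with a median of 98.9 CPM, against 14.9 CPM in Gip-high and 32.9 CPM in Pzp-positive cells.

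The 250 bases before the RefSeq start (GRCm38.p6) are shown for 3 of the carriers whose Gip-high sums lay below all Gcg-high sums and whose start lies within 50 bases of a coding transcript of GENCODE. The first is chr17:85028097-85028346 on the plus strand, the second chr14:121505255-121505504 and the third chr10:40142255-40142504, both on the minus strand, each written 5′ to 3′. Capitals mark 3 motifs, searched on both strands, which do not overlap each other. CAAAGTCCA is a site of the nuclear receptor HNF4. The GATA factors, zinc finger proteins of gut epithelium, bind AGATAA. HNF1, a homeobox factor of the same epithelium, binds a site with GTTAAT at its core.
Slc3a1: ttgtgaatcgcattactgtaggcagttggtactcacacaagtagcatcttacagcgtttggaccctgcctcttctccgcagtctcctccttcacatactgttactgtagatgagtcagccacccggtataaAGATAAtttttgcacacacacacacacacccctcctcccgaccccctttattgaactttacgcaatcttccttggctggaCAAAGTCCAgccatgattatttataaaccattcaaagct
Slc15a1: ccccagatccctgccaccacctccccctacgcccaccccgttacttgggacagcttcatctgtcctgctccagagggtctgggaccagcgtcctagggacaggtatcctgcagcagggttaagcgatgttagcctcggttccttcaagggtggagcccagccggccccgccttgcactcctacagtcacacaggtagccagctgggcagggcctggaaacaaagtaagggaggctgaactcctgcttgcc
Slc16a10: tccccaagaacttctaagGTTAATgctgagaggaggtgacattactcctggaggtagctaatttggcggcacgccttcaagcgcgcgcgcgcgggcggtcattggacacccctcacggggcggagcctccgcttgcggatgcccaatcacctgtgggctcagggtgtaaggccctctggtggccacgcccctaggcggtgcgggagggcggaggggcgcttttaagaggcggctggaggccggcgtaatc
The Slc3a1 window held CAAAGTCCA starting 39 bases and AGATAA starting 119 bases before the start. Of 32817 promoter windows of the same length, 0.384% held the HNF4, 9.99% the GATA and 6.44% the HNF1 letters. Of the 102 windows of transporter genes, these counts were 1, 5 and 8. The Slc15a1 window held none of the motifs, and the Slc16a10 window held the HNF1 letters 232 bases before the start. Slc43a2 meets the same conditions, and its windows, chr11:75531444-75531693 and chr11:75531862-75532111 on the plus strand, held none of the motifs and are not printed. Slc16a1, Slc16a12, Slc38a10 and Slc7a4 also had Gip-high sums below all Gcg-high sums. Their starts were not compared with GENCODE, so the windows shown are a chosen part.

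The fructose carrier Slc2a5 (chr4:150119283-150144169, plus strand) was the leading hexose carrier among the members. Its level was 89.8, 54.4 and 47.8 CPM in Gcg-high cells, 32.1, 68.3 and 105 CPM in Gip-high cells, and 24.8, 22 and 26.2 CPM in Pzp-positive cells. All sums of both hormone classes lay above the Pzp-positive sums. The log2 fold change against Pzp-positive cells was 1.40 (SE 0.56, adjusted p = 0.938) in Gcg-high and 1.51 (SE 0.57, adjusted p = 0.208) in Gip-high cells with edgeR. DESeq2 called the second (adjusted p = 0.0471), but without the cells highest in enterocyte genes it was 0.60 (edgeR, adjusted p = 0.851). With all cells thinned to 20000 reads, Slc2a5 had log2 fold changes of 0.36 in Gcg-high and 1.03 in Gip-high cells. In the deep pool the median cell had 42.6, 24.5 and 4.51 CPM in the Gcg-high, Gip-high and Pzp-positive class. Khk, ketohexokinase, which starts fructose breakdown, was read together with Slc2a5 in 10 of 19, 4 of 10 and 15 of 28 of these cells.

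The widely used glucose carrier Slc2a1 was at 0, 2.09 and 6.05 CPM in Gcg-high, 3.57, 2.28 and 21.2 CPM in Gip-high, and 12.4, 11.8 and 13.8 CPM in Pzp-positive cells. Its Gcg-high sums lay below the Pzp-positive sums (log2 fold change -2.79, SE 1.24, adjusted p = 0.999, edgeR), at -1.95 without pool SLX-11175 and -3.48 without pool SLX-9703. In that pool 3 cells held 96.4% of its Gcg-high reads. Slc5a11, a sodium-coupled carrier of myo-inositol, had 57 reads in all 9 sums and was not tested.

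Slc6a8, the creatine carrier (chrX:73673150-73682502, plus strand), was lowest in Gcg-high cells. Its level was 2.59, 2.09 and 4.47 CPM there, 17.8, 22.8 and 48.6 CPM in Gip-high cells, and 16.9, 5.64 and 14.3 CPM in Pzp-positive cells. The 3 classes did not overlap in any pair. Gip-high against Gcg-high cells gave a log2 fold change of 3.29 (SE 0.95, adjusted p = 0.130, edgeR), which DESeq2 called (adjusted p = 5.49e-04) and which was 4.89 without the cells highest in enterocyte genes. The shallow values rest on 3 reads in each shallow Gcg-high sum and on 5 and 10 reads in the Gip-high sums. In the deep pool 8 of 19 Gcg-high, 5 of 10 Gip-high and 16 of 28 Pzp-positive cells had reads, and 3 cells held 82.6% of the reads of the Gip-high class.

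The other Slc6a genes tested, Slc6a6, Slc6a7 and Slc6a13, had overlapping sums in every pair of classes. The taurine carrier Slc6a6 was at 116 ± 18.6 CPM in Gcg-high, 126 ± 33.2 CPM in Gip-high and 131 ± 17.5 CPM in Pzp-positive cells (SD, n = 3), with log2 fold changes of -0.16, 0.10 and -0.07 (SE 0.43 to 0.44). The proline carrier Slc6a7 was at 13 ± 8.26, 14.6 ± 9.31 and 12.5 ± 3.46 CPM in the same order. The imino acid carrier Slc6a20a was at 0.922 ± 1.60, 10.7 ± 18.5 and 1.52 ± 2.59 CPM and was not tested.

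Slc43a2, which lets branched-chain amino acids and phenylalanine out of the cell, had 50.1, 110.3 and 68.2 CPM in Gcg-high cells, 7.14, 20.5 and 33.3 CPM in Gip-high cells, and 23.7, 47.2 and 57.8 CPM in Pzp-positive cells. The log2 fold change of Gip-high against Gcg-high cells was -1.95 (SE 0.58, adjusted p = 0.139, edgeR; DESeq2 adjusted p = 0.0196), and -1.10 with cells thinned to 20000 reads (edgeR, adjusted p = 0.362). Slc16a10, the aromatic amino acid carrier, had 66.5, 114 and 123 CPM in Gcg-high, 28.6, 29.6 and 47.7 CPM in Gip-high, and 82.3, 62 and 72.3 CPM in Pzp-positive cells. All its Gip-high sums were the lowest, with a log2 fold change of -1.50 (SE 0.50, adjusted p = 0.184, edgeR; DESeq2 adjusted p = 0.0442) against Gcg-high cells. Over the alternatives it ran from -2.26 without the cells highest in enterocyte genes to -0.91 with cells of more than 1 condition kept, and DESeq2 alone called it. Slc43a2 exons overlap Gm45606, while Slc16a10 has no such overlap.

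The heavy subunit Slc3a2 had overlapping sums in the 3 classes, at 42.9 ± 2.75 CPM in Gcg-high, 33.5 ± 23.4 CPM in Gip-high and 41.8 ± 5.98 CPM in Pzp-positive cells. Per length, its light subunits Slc7a7, Slc7a6, Slc7a5 and Slc7a8 were at 2.38, 2.10, 1.65 and 1.39 CPM per kb over the 9 sums, against 11.2 CPM per kb for Slc3a2. Slc7a5 and Slc7a8, exchangers of large neutral amino acids, were at 7.40 ± 4.15 and 9.23 ± 6.83 CPM in Gcg-high, 6.46 ± 11.2 and 5.66 ± 9.80 CPM in Gip-high, and 4.46 ± 1.70 and 5.997 ± 0.624 CPM in Pzp-positive cells. Slc7a7, the basolateral exchanger of cationic amino acids, was at 0, 0 and 4.41 CPM in Gcg-high cells, 0, 15.9 and 5.92 CPM in Gip-high cells, and 19.2, 11.3 and 14.2 CPM in Pzp-positive cells. Its Gcg-high sums lay below the Pzp-positive ones (log2 fold change -3.66, SE 1.53, adjusted p = 0.996, edgeR), with -2.56 when pool SLX-11175 was left out and -7.18 without pool SLX-9703. Among the 57 deep cells, Slc3a2 was read in 52, and together with Slc7a6 in 32, with Slc7a5 and Slc7a8 in 23 each, and with Slc7a7 in 20. It was read with the cystine carrier Slc7a11 in 33, but Slc7a11 stood at 0.107 CPM per kb and kept a read after thinning in 0 of 19, 1 of 10 and 1 of 28 cells. Slc7a7 exons overlap Oxa1l.

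Slc7a15, a member of the amino acid carrier family, had no read in any of the 25 Gip-high cells. Its level was 0, 9.07 and 5.38 CPM in Gcg-high and 3.38, 11.3 and 6.71 CPM in Pzp-positive cells. Against a floor of 3 reads over the whole Gip-high class, 0.272 CPM, it was at least 24.9-fold lower than in Pzp-positive cells (613 reads) and at least 19.7-fold lower than in Gcg-high cells (357 reads). Pool SLX-9703 held 588 and 344 of these reads, and without it the limits were 2.11-fold and 1.20-fold. The main edgeR test gave an adjusted p of 0.0954 and 0.188. Over 15 alternatives each, the first comparison passed in 2 and the second in 0. In the deep pool 6 of 19 Gcg-high and 10 of 28 Pzp-positive cells had reads, and 3 cells held 86.7% of the Pzp-positive reads.

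Glutamine carriers followed no common order. Slc38a2, the amino acid-regulated carrier of small neutral amino acids, was at 42.2 ± 13.1 CPM in Gcg-high, 25.5 ± 5.24 CPM in Gip-high and 34.5 ± 17.5 CPM in Pzp-positive cells. Slc38a1, of the same transport system, had 104, 61.5 and 63 CPM in Pzp-positive cells and 32.1, 2.28 and 12.3 CPM in Gip-high cells, with a log2 fold change of -2.40 (SE 0.90, adjusted p = 0.204, edgeR; -3.43 to -1.55 over the alternatives) between them. Slc1a5, a glutamine exchanger, was at 2.59, 10.5 and 9.95 CPM in Gcg-high cells, below the 39.4, 29.7 and 20.8 CPM of Pzp-positive cells (log2 fold change -1.90, SE 1.03, adjusted p = 0.999, edgeR). In Gip-high cells Slc1a5 was at 46.4, 0 and 43.4 CPM, and each of the values above 0 came from 1 cell. Slc38a10 was at 27.7 ± 6.05, 11.5 ± 0.807 and 31.7 ± 18.9 CPM in the order of classes used above.

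Slc7a4, of the family of cationic amino acid carriers, had 34.5, 14 and 21 CPM in Gcg-high, 0, 11.4 and 8.24 CPM in Gip-high, and 20.3, 47.7 and 28.8 CPM in Pzp-positive cells, and its Gip-high sums lay below all others. Slc7a2, a carrier of arginine and lysine, was higher in Gip-high than in Pzp-positive cells within each pool (10.7 and 5.63, 11.4 and 3.08, 3.49 and 0.114 CPM), with a log2 fold change of 2.90 (SE 1.33, adjusted p = 0.343, edgeR). It was 3.63 without pool SLX-11175, 3.41 without pool SLX-11179 and 1.62 without the replicate block, and Slc7a2 did not pass the filter without pool SLX-9703. Slc36a1, a proton-coupled carrier of lysosomes and the brush border, was at 20.7 ± 17.3, 36.3 ± 23.9 and 21.7 ± 7.26 CPM. Slc38a9, the lysosomal arginine sensor upstream of mTORC1, was at 12.5 ± 7.78, 6.96 ± 5.17 and 7.27 ± 5.43 CPM, and Slc38a7, a lysosomal glutamine carrier, at 9.67 ± 3.89, 3.19 ± 3.63 and 2.31 ± 2.78 CPM. The glutamate carrier Slc1a1 was at 3.82 ± 4.70 CPM in Gcg-high and 4.62 ± 2.69 CPM in Pzp-positive cells with no read in Gip-high cells, and it was not tested.

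Among the Slc16a genes, Slc16a1, the lactate and short-chain monocarboxylate carrier, had 25.9, 9.77 and 16.2 CPM in Gcg-high cells, 7.14, 0 and 0.388 CPM in Gip-high cells, and 4.51, 11.3 and 7.71 CPM in Pzp-positive cells. Its Gip-high sums lay below the Gcg-high sums (log2 fold change -3.78, SE 1.44, adjusted p = 0.271, edgeR), at -5.31 without pool SLX-11175 and -2.41 without pool SLX-9703. Slc16a12 was at 0, 0 and 0.485 CPM in Gip-high cells, where 3 reads equal 10.7 and 6.83 CPM in the shallow sums, against 2.59, 8.38 and 9.38 CPM in Gcg-high and 7.89, 11.3 and 3.75 CPM in Pzp-positive cells (log2 fold changes -4.15 and -4.37, adjusted p = 0.252 and 0.193, edgeR). In the deep pool it was read in 13 of 19 Gcg-high, 5 of 10 Gip-high and 11 of 28 Pzp-positive cells, and 3 cells held 81.7% of the Gcg-high and 96.7% of the Pzp-positive reads. A few high cells thus held most reads of the other classes in that pool. The median cell had 1.11 CPM in Gcg-high, 0.213 CPM in Gip-high and 0 CPM in Pzp-positive cells. Slc16a11 had the opposite order, at 5.18, 9.07 and 11.8 CPM in Gcg-high and 14.3, 31.9 and 29.9 CPM in Gip-high cells, where the sums did not overlap (log2 fold change 1.54, SE 0.84, adjusted p = 0.491, edgeR). Slc16a5 and Slc16a6 overlapped between all classes. Bsg, the glycoprotein that escorts Slc16a1 to the membrane, was read in all 57 deep cells and Slc16a1 in 29 of them.

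**Figure D3:**
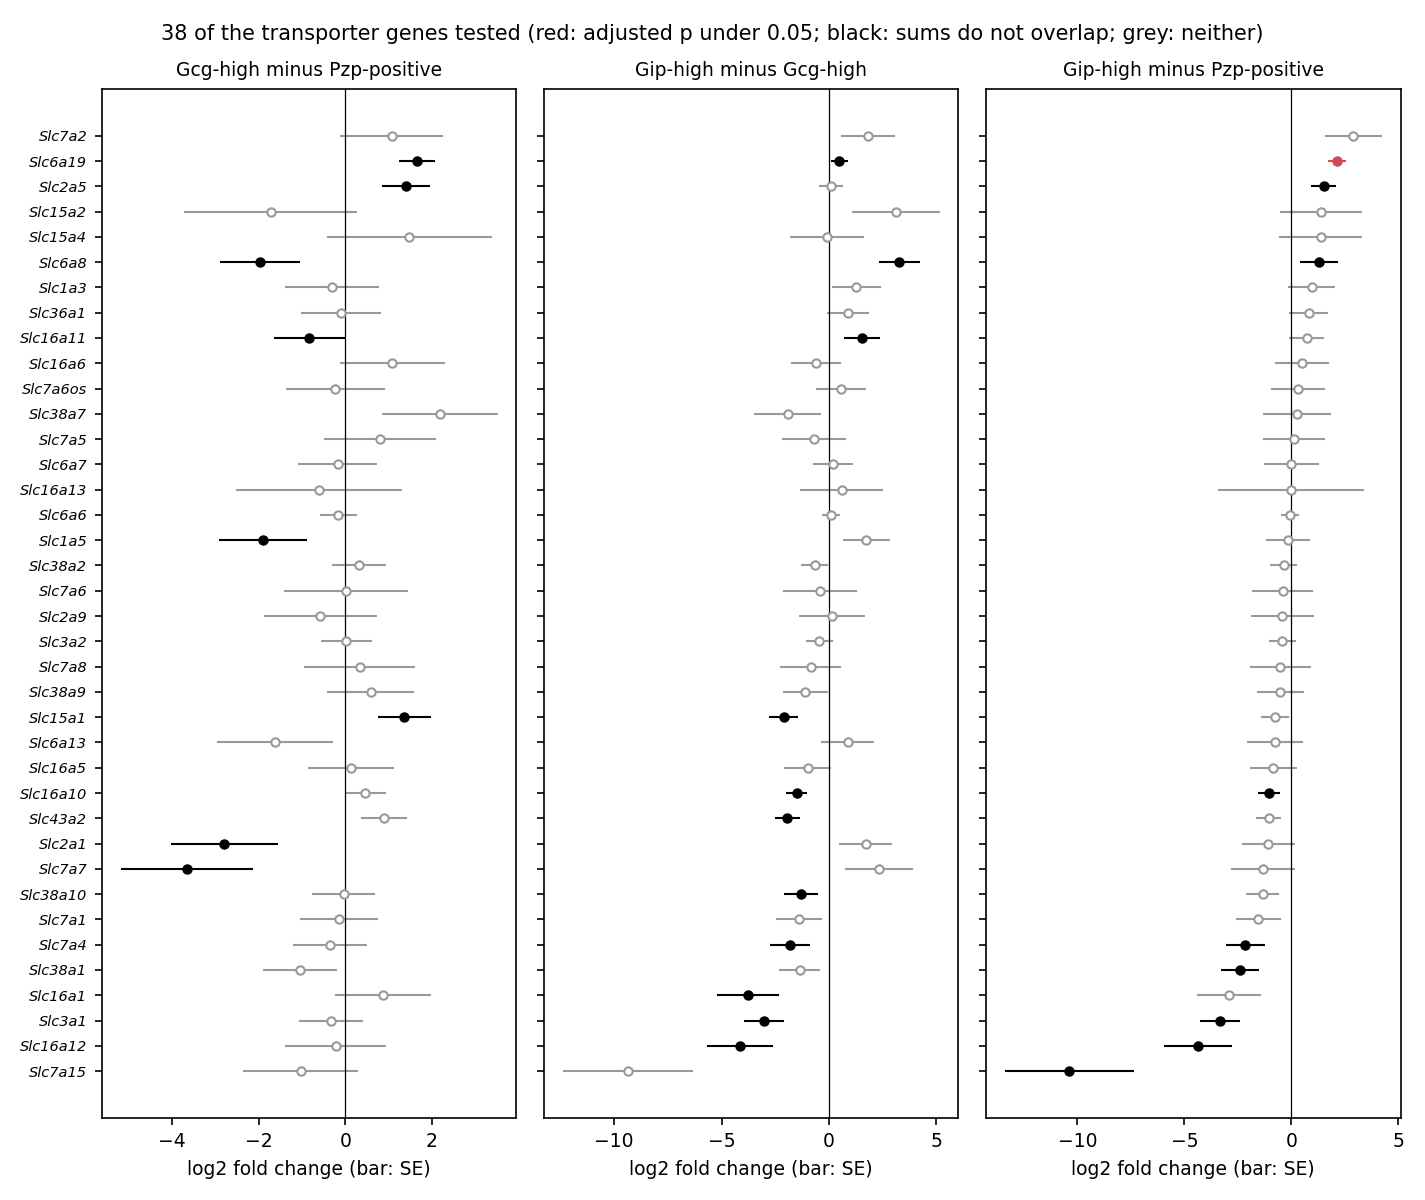
Log2 fold changes with their SE for 38 of the 39 tested transporter genes in the 3 comparisons, ordered by the comparison of Gip-high with Pzp-positive cells. The 1 red point is Slc6a19 at 2.14, and black points are genes whose sums did not overlap. In both comparisons of Gip-high cells these lie more often left than right of 0, as the 1224 of 1680 and 1319 of 1874 such genes of the whole table do.

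The calls over the 39 tested genes were few. With edgeR at an adjusted p under 0.05, 0 were called between Gcg-high and Pzp-positive cells, where 0.269% of 9656 genes were called, 0 between Gip-high and Gcg-high cells (1.12% of all genes), and 1, or 2.56% of the 39, between Gip-high and Pzp-positive cells (2.86%). At an unadjusted p under 0.05 there were 6, 8 and 8 transporter genes (15.4%, 20.5% and 20.5% of the 39), against 4.33%, 12.8% and 14.1% of all genes. DESeq2 called 1, 5 and 3 of the 39 (2.56%, 12.8% and 7.69%), against 1.21%, 5.68% and 8.25% of all genes. The sums of both classes did not overlap for 8 of the 39 genes between Gcg-high and Pzp-positive cells, against 13.8% of all genes. This held for 11 of 39 between Gip-high and Gcg-high cells, against 17.4%, and for 9 of 39 between Gip-high and Pzp-positive cells, against 19.4%. These shares, 20.5%, 28.2% and 23.1%, lie above those of all genes tested, as do those at an unadjusted p under 0.05, and the excess was not tested.

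By direction, 3 of the 8 genes were higher in Gcg-high than in Pzp-positive cells (Slc15a1, Slc2a5 and Slc6a19) and 5 were lower (Slc16a11, Slc1a5, Slc2a1, Slc6a8 and Slc7a7), against 674 higher (6.98%) and 658 lower (6.81%) of all genes tested. In Gip-high against Gcg-high cells 3 were higher (Slc16a11, Slc6a19 and Slc6a8) and 8 lower (Slc15a1, Slc16a1, Slc16a10, Slc16a12, Slc38a10, Slc3a1, Slc43a2 and Slc7a4), against 456 higher (4.72%) and 1224 lower (12.7%) of all genes. In Gip-high against Pzp-positive cells 3 were higher (Slc2a5, Slc6a19 and Slc6a8) and 6 lower (Slc16a10, Slc16a12, Slc38a1, Slc3a1, Slc7a15 and Slc7a4), against 555 higher (5.75%) and 1319 lower (13.7%) of all genes. In both Gip-high comparisons the lower genes thus also outnumber the higher ones over the whole table. Both Gip-high comparisons share the Gip-high sums. The median log2 fold change of the tested transporter genes was -0.15, -0.41 and -0.40 in the 3 comparisons, against 0.01, -0.24 and -0.24 over all genes tested.

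Genes that work with the carriers were read from lists chosen by function. Of 12 transporter partners, 9 were tested. Anpep, the brush border aminopeptidase that releases amino acids for uptake, had 321, 302 and 226 CPM in Gcg-high cells, 7.14, 50.1 and 34.1 CPM in Gip-high cells, and 53, 34.9 and 62.2 CPM in Pzp-positive cells. It fell by 3.22 on the log2 scale in Gip-high against Gcg-high cells (SE 0.59, adjusted p = 0.0123, edgeR) and was 2.50 higher in Gcg-high than in Pzp-positive cells (SE 0.55, adjusted p = 0.0796, edgeR). With Cltrn, 2 of 9 partners were lower in Gip-high against Gcg-high cells, 1 of 9 (Cltrn) against Pzp-positive cells, and 0 of 9 passed between Gcg-high and Pzp-positive cells, where 1.12%, 2.86% and 0.269% of all genes were called. Other partners had higher sums in Gip-high cells than in 1 other class, without passing. Dpp4, a brush border dipeptidase, had 208, 202 and 237 CPM in Gcg-high, 271, 150.2 and 187 CPM in Gip-high, and 38.3, 83.6 and 59.8 CPM in Pzp-positive cells, with a log2 fold change of 1.74 (adjusted p = 0.0640, edgeR) in Gip-high and 1.83 (adjusted p = 0.174, edgeR) in Gcg-high against Pzp-positive cells. Arrdc4, an arrestin-domain protein, was higher in all Gip-high than in all Gcg-high sums (log2 fold change 3.06, adjusted p = 0.162, edgeR), and Emb, a glycoprotein that escorts monocarboxylate carriers, in all Gip-high than in all Pzp-positive sums (1.24, adjusted p = 0.506, edgeR). Pdzk1ip1 was lower in all Gip-high than in all Gcg-high sums and Bsg lower than in all Pzp-positive sums, without passing. Of 4 tested sodium pump genes, only Fxyd3, a modulator of the pump, passed, lower by 2.65 on the log2 scale in Gip-high than in Pzp-positive cells (SE 0.63, adjusted p = 0.0334, edgeR). The pump subunit Atp1b1 was at 160 ± 20.4 CPM in Gcg-high, 188 ± 88.6 CPM in Gip-high and 129 ± 37.7 CPM in Pzp-positive cells. None of the 5 amino acid response, 7 amino acid sensing and 12 hexose metabolism genes tested passed in any comparison with edgeR.

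**Figure D4:**
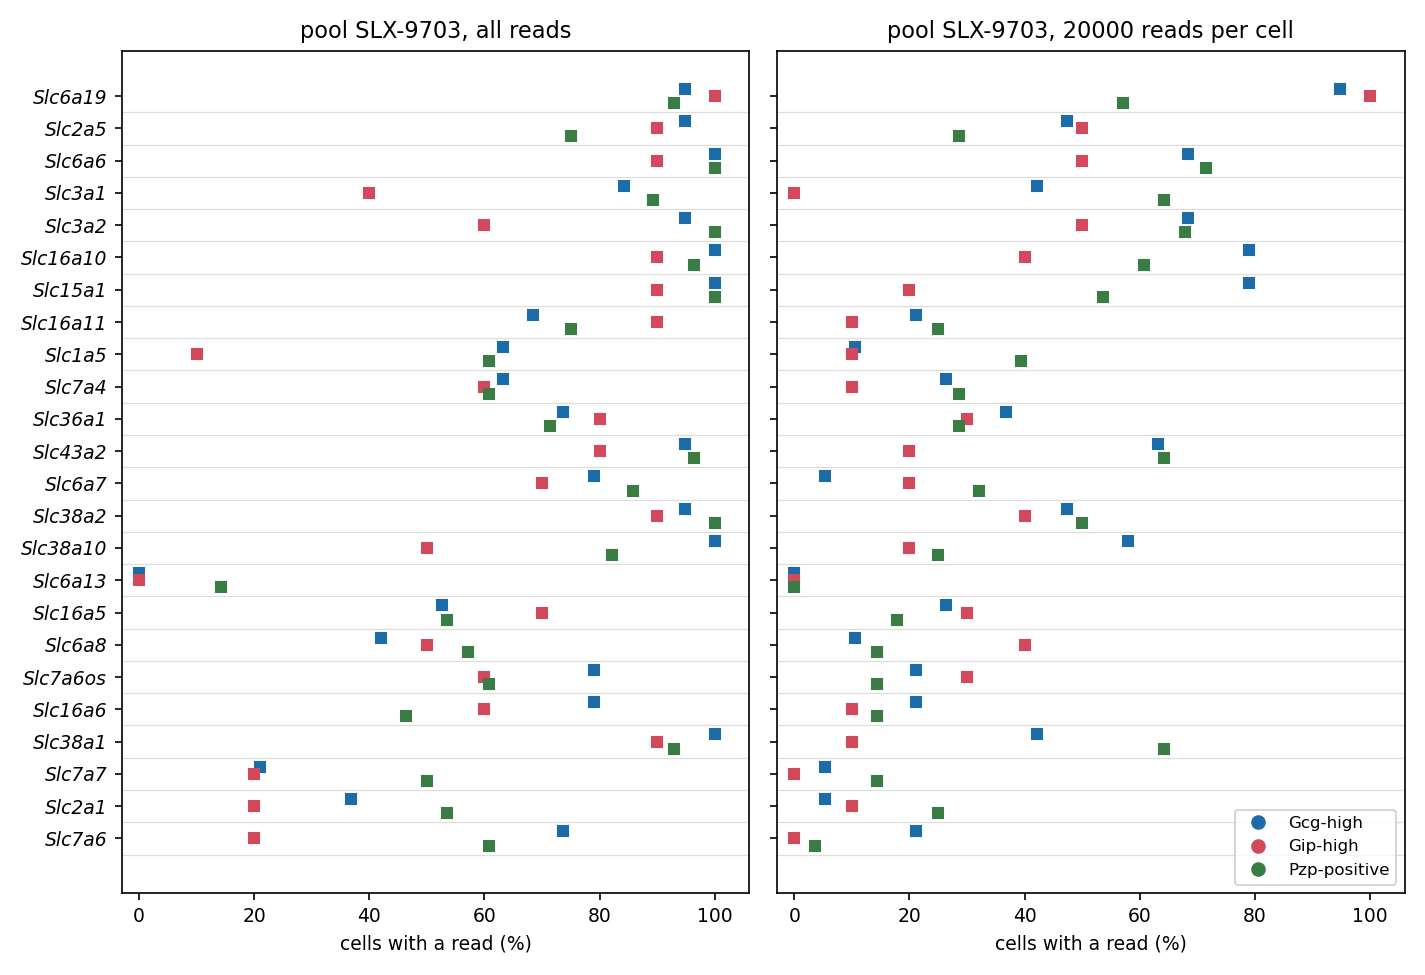
Share of cells with a read in pool SLX-9703 for 24 of the 25 transporter genes highest per length, with all reads (left) and with each cell thinned to 20000 reads (right). Slc6a19 keeps a read in nearly all Gcg-high and Gip-high cells after thinning but in 57.1% of Pzp-positive cells, and Slc3a1 in 42.1%, 0% and 64.3%. Thinning matches total reads only, and Gip itself leaves fewer of them for other genes in the Gip-high class. Its level in that sum, 505101 CPM, is TMM-scaled and not a share of the reads.

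Slc16a10, Slc15a1, Slc43a2 and Slc3a1 were read in fewer cells of each class once all cells were thinned to the same total of reads. With all reads, Slc16a10 was found in 100%, 90% and 96.4% of Gcg-high, Gip-high and Pzp-positive cells of the deep pool, and after thinning in 78.9%, 40% and 60.7%. Slc15a1 went from 100%, 90% and 100% to 78.9%, 20% and 53.6%, and Slc43a2 from 94.7%, 80% and 96.4% to 63.2%, 20% and 64.3%. Slc3a1 went from 84.2%, 40% and 89.3% to 42.1%, 0% and 64.3%. The order of the classes for each of these genes was that of the CPM values, except that Slc43a2 had nearly equal shares in Gcg-high and Pzp-positive cells. Equal totals did not leave equal reads for these genes. Gip itself, at 505101 TMM-scaled CPM in the Gip-high sum of the deep pool, left fewer thinned reads for other genes in that class. That value is not the share of the reads that Gip held. The part of Gip in the lower Gip-high shares was not tested. The 10 Gip-high cells of this pool were also the shallowest class, with a median of 831266 reads against 2400020 and 2147110.

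The cells that met none of the 3 conditions gave a contrast within the same pools. They were split into an endocrine remainder of 51 cells (Cck of 10000 CPM or Chga of 100 CPM or more) and 52 hormone-poor cells, on a scale fitted to all 15 sums. Slc6a19 in the endocrine remainder, at 403, 243 and 381 CPM, overlapped with Gcg-high cells on that scale (271, 343 and 255 CPM), and in hormone-poor cells it was at 32.3, 74.7 and 40.2 CPM. Slc15a1 also overlapped, at 71.5, 52.9 and 121 CPM in the endocrine remainder and 55.7, 98.2 and 68.3 CPM in Gcg-high cells. Slc7a9, nearly missing from the hormone classes, stood at 55.1, 40.1 and 64.2 CPM in hormone-poor cells, with reads in 2 of 20, 2 of 21 and 5 of 11 cells. Its partner Slc3a1 was at 0, 2.31 and 33.2 CPM there. Slc7a7 was at 16.1, 44.7 and 69.1 CPM and Slc3a2 at 317, 170 and 165 CPM in hormone-poor cells, against 7.39, 3.08 and 1.49 CPM and 56.7, 47.7 and 38.4 CPM in the endocrine remainder. Hormone-poor cells summed to 234220, 218400 and 2616 CPM of leukocyte markers (7 or 8 of 9 read) and to 1129, 1066 and 19986 CPM of enterocyte markers (12 of 12 read), against 56.1, 168 and 356 CPM of endocrine markers. The median hormone-poor cell had far less, at 1750, 276 and 5.23 CPM of leukocyte and 57.6, 242 and 103 CPM of enterocyte markers. The part of these cell types in the hormone-poor values was not tested.

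**Figure D5:**
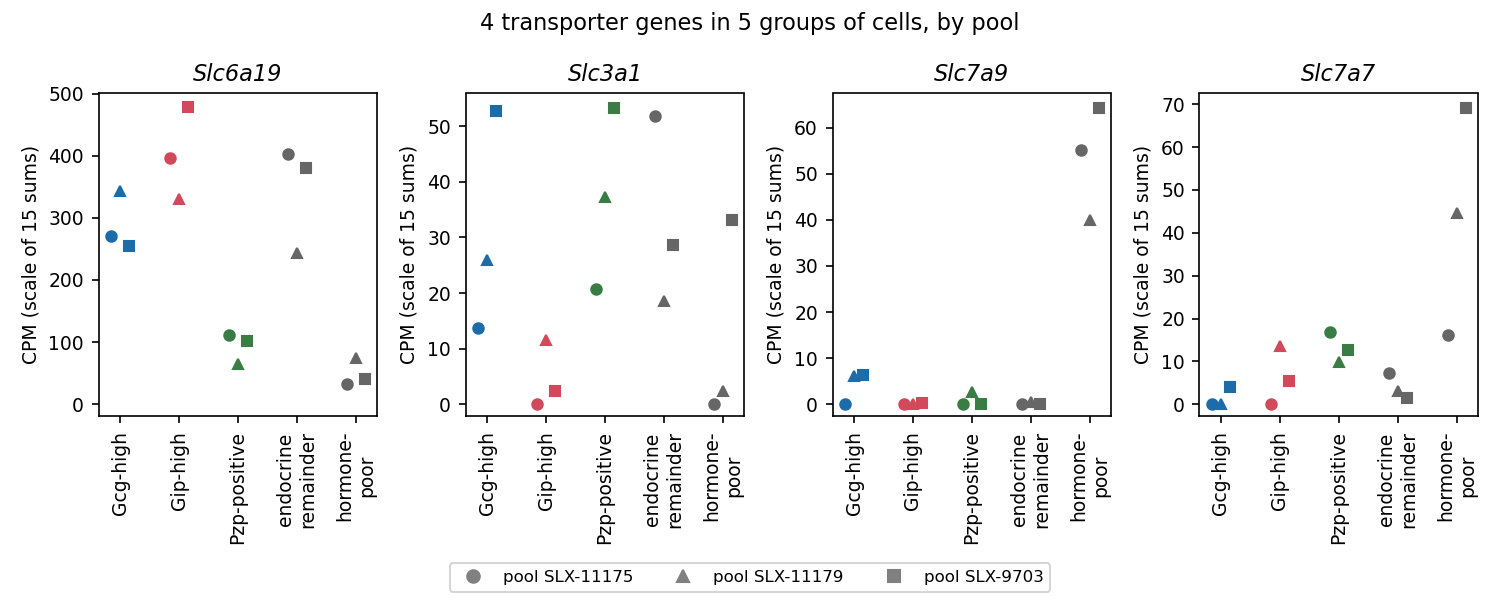
CPM of Slc6a19, Slc3a1, Slc7a9 and Slc7a7 in 5 groups of cells, on a scale fitted to 15 sums; points are pools. Slc6a19 is high in the Gcg-high, Gip-high and endocrine remainder sums, and Slc7a9 lies above 40 CPM only in the hormone-poor sums.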

How the data were processed

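Per the submitters' processing notes, Smart-seq2 reads were aligned with GSNAP to mm10 and counted with HTSeq (0.5.3p3). The table the authors deposited gives raw counts per gene and cell for 46078 mouse genes, 92 spike-ins and 5 lines naming no gene (77.6% of all counts, kept out of library sizes); 4 columns without a sample stayed unused. GENCODE M21 gave symbols and exon lengths (45229 identifiers).

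Cells were summed per pool and class and tested with edgeR 4.0.16 (R 4.3.3; TMM, filterByExpr, quasi-likelihood test, pool as block, Benjamini-Hochberg over 9656 genes, threshold 0.05), with 9 sums in a single model. CPM are TMM-scaled. CPM per kb divides by merged exon length. Thinned cells hold 20000 reads drawn at random. Sums of the same pool correlated after class means were removed (median 0.107 over 9 pairs, against -0.118 over 18 pairs of different pools), and the block marks the pool that the labels give. On simulated sums with 200 of 9250 genes changed 8-fold in Gip-high cells, 140 were called against Gcg-high and 157 against Pzp-positive cells. The changed genes were drawn only from genes of higher level, and all genes had the same fixed spread. Most tested transporter genes have lower levels, so these counts do not describe them. DESeq2 1.42.0 was an alternative. No doublet caller was run on the singly sorted cells.

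The genes, classes and lists were chosen with earlier results of these data known. Named genes are those called, the 25 highest per length, 17 carriers of known role, and the 5 largest fold changes per comparison with all pools in 1 direction; Slc7a11, and the fold changes with an unadjusted p under 0.05 that were refitted under the alternatives, were added after their values were seen. A few genes that this rule or the lists would name are not reported here. Floors and exact intervals cover counting error only.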

Additional observations from a re-analysis of the deposited data

How the results depend on the processing

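With DESeq2, 1 transporter gene was called between Gcg-high and Pzp-positive cells, 5 between Gip-high and Gcg-high cells and 3 between Gip-high and Pzp-positive cells, in place of 0, 0 and 1; of all genes DESeq2 called 1.21%, 5.68% and 8.25%, against 0.269%, 1.12% and 2.86% with edgeR. Without the filter on low counts there were 2 between Gip-high and Gcg-high cells (Slc36a4 higher, Slc7a14 lower) and 3 between Gip-high and Pzp-positive cells, of 97 tested, against 0.871% and 1.58% of all genes. With the cells of no class condition as a 4th class there were 2 of 48 between Gip-high and Pzp-positive cells, against 3.73% of all genes. With class thresholds 3 times higher, and with cells thinned to 20000 reads, 1 (Slc6a19) was called between Gcg-high and Pzp-positive cells, of 38 and 12 tested, against 0.493% and 1.80% of all genes. With any 1 pool left out the count ranged from 0 to 0 in the comparison of Gip-high with Pzp-positive cells, and the lone call, Slc6a19, was lost. Without the replicate block (pools not paired) the counts were 0, 0 and 1, as with the block. Cell numbers in the labels name wells and do not pair cells across pools. The other alternatives (median-of-ratios scaling, other depth and mitochondrial limits, cells of more than 1 condition, lower thresholds, hormone genes taken out, cells highest in enterocyte genes left out) left the 3 counts as they were; the minimum of 50000 reads left 8 sums. For 24 pairs of a gene and a comparison, picked because they were called, were among the largest with all pools in 1 direction or had an unadjusted p under 0.05, 390 fold changes were refitted. The 1 called pair was called in 14 of its 17 refits, and the 23 pairs not called passed in 13 of 373. Of the 390, 0 changed sign, which that choice largely fixes. Of 1125 recomputed class means of the 25 genes highest per length, 1041 moved by less than 1 SD between pools. Depth limits the shallow Gip-high sums, where 3 reads are 10.7 and 6.83 CPM. The causes of these changes were not tested.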

Other observations

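Slc6a13, a carrier of GABA and taurine, differed in detection between the pools. It was read in 52% and 72.4% of the used cells of the shallow pools SLX-11175 and SLX-11179 but in 5.68% of those of the deep pool SLX-9703. Its level was 10.7, 12.8 and 0.629 CPM over all used cells of the 3 pools, and the median cell with a read had 1, 1 and 4 reads. After thinning to 20000 reads the shares were 29.3% (95% exact binomial interval 19.4 to 41%), 27.6% (18.5 to 38.2%) and 1.14% (0.0288 to 6.17%). The cystine carrier Slc7a11 and the cationic amino acid carrier Slc7a3 had their highest shares in the deep pool before thinning, at 6.67%, 13.8% and 61.4% and at 18.7%, 14.9% and 67%, with a median of 1 read in the cells with a read. Thinned, they stood at 4%, 8.05% and 3.41% and at 8%, 5.75% and 1.14%.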
